A study of Mus musculus with 10 samples.

Results

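Synaptic adhesion molecules are the 38 genes examined here, taken by name from 9 families: the neurexins (Nrxn2, Nrxn3), the neuroligins (Nlgn1 to Nlgn3), the LRRTM proteins (Lrrtm1 to Lrrtm4), the contactins (Cntn1 to Cntn6), the contactin-associated proteins (Cntnap1 to Cntnap4, Cntnap5a, Cntnap5b), the SLITRK proteins (Slitrk1 to Slitrk6), the LRFN proteins (Lrfn1 to Lrfn5), the FLRT proteins (Flrt1 to Flrt3) and the LAR-type receptor phosphatases (Ptprd, Ptprs, Ptprf). All 38 were found among the 43629 genes of the deposited tables, and all 38 passed the filter on low counts. RNA was sequenced from the dorsal telencephalon of C57BL/6 mouse embryos at E14.5. The 5 control embryos carried no Cre and were heterozygous for the floxed Dot1l allele (Dot1l-cKO f/+), and the 5 Dot1l-cKO embryos carried 1 copy of Cre and 2 floxed alleles (Dot1l-cKO f/f). DOT1L is a histone methyltransferase. Since only the Dot1l-cKO embryos carried the Cre allele, loss of Dot1l and presence of that allele cannot be told apart in these groups.

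Synaptic adhesion molecules are membrane or membrane-anchored proteins that reach across the gap between axon and target cell. Neurexins and LAR-type phosphatases sit mainly on the axon, where neurexins bind neuroligins and LRRTM proteins and the phosphatases bind SLITRK and some LRFN proteins on the receiving side. Contactins are tethered to the membrane by a lipid anchor and pair with contactin-associated proteins along axons, and FLRT proteins bind latrophilins and UNC5 receptors in both synapse formation and neuronal migration. At the age sampled, the mouse cortex is producing neurons and has few synapses, and many of these genes are already transcribed in migrating neurons and growing axons.

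Each sample held between 54202349 and 66556034 counts. Dot1l itself was read at 31.4, 41.5, 36.6, 40.6 and 36.3 CPM (counts per 1000000 of the sample's total after TMM scaling, the edgeR adjustment for the make-up of each library) in control replicates 1 to 5 and at 42.3, 20.1, 39.6, 43.4 and 51.7 CPM in Dot1l-cKO replicates 1 to 5, a difference that edgeR did not call (a log2 fold change of 0.08 ± 0.20, adjusted p = 0.864). The lowest of the 10 values belonged to Dot1l-cKO replicate 2, and the other Dot1l-cKO samples were within or above the control range. The count per gene sums reads from every exon, including those that Cre does not remove, so it is no check of the deletion and the groups are used as labelled. Replicates 2 and 3 of both groups share the number 57 at the head of their deposited columns, and mitochondrial ribosomal RNA took 0.0471% to 0.492% of their counts against 5.79% to 10.9% in the other 6 samples. Fold changes are therefore also given within these 4 samples and within the other 6. Males, read from Y-linked genes, were control replicate 4 and Dot1l-cKO replicates 1 and 3.

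The comparison of Dot1l-cKO with control embryos asked which synaptic adhesion genes differ in level between these groups. At an adjusted p under 0.05 in edgeR, 7 of the 38 members were higher in Dot1l-cKO (Nlgn1, Lrrtm1, Cntn3, Cntn5, Cntnap2, Slitrk2, Lrfn5) and 2 were lower (Cntnap3, Flrt3). That is 18.4% of members higher and 5.26% lower, where 5.67% of the 17039 genes tested were higher and 1.44% lower (7.11% in either direction, against 23.7% of members). The list was chosen with earlier results of these data known, so these shares cannot show that this class changes more than other genes. The 7 rises lay between 0.36 and 0.86 on the log2 scale, and Flrt3 fell by 0.95 and Cntnap3 fell by 2.34. Errors of log2 fold changes are standard errors throughout. They were derived from the test, as the size of the log2 fold change over the square root of its F statistic. Over all 38 members the median log2 fold change was 0.13, with 23 members above and 15 below 0, and over all genes it was -0.0056. At an unadjusted p under 0.05 there were 17 members, among 3508 genes. Levels of 8 members did not overlap between the groups (6 higher, 2 lower), compared with 8.34% of all genes (6.17% higher, 2.17% lower). The rises did not sit in 1 family: neuroligins, LRRTM proteins, contactin-associated proteins, SLITRK and LRFN proteins each had 1 and contactins had 2. Since the RNA came from whole tissue, fewer cells of a type and less RNA per cell cannot be told apart.

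**Figure D1:**
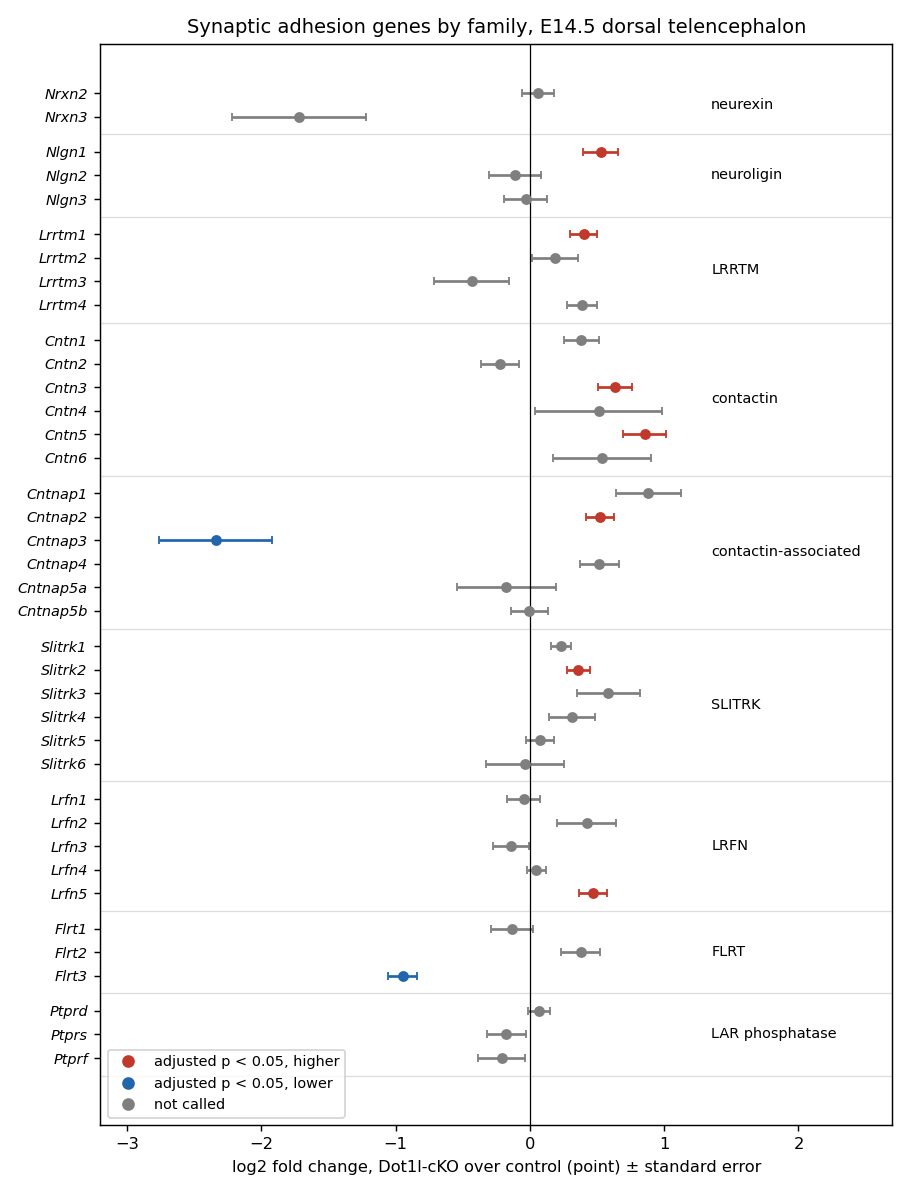
Log2 fold change of each of the 38 synaptic adhesion genes in Dot1l-cKO over control embryos (x axis), by family (y axis). Points are edgeR estimates and bars their standard errors, derived from the F statistic of the test. Red points passed an adjusted p of 0.05 as higher, blue points as lower, grey points did not pass. Cntnap3 and Nrxn3 lie farthest to the left and Cntn5 is the red point farthest to the right.

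The number of members called moved with the fit. With the replicate number as a block, which pairs embryos of the 2 groups, 11 members were higher and 2 lower (6.51% and 2.91% of all genes): the same 9 plus Lrrtm4, Cntnap4, Slitrk3 and Flrt2. DESeq2 called 10 higher and 3 lower (6.77% and 3.32% of all genes with an adjusted p), the same 9 plus Lrrtm4, Cntnap1, Cntnap4 and Nrxn3. With header number 57 as a covariate, 13 were higher and 3 lower (7.49% and 3.02% of all genes). Within the 6 samples of other header numbers, 3 were higher (Cntn5, Cntnap2, Slitrk3) and 2 lower (Cntnap3, Flrt3), beside 3.41% and 0.896% of all genes. Within the 4 samples of header number 57, edgeR called 0 members and 1 gene in all, and 16 of the 38 members had an unadjusted p under 0.05, as did 14.1% of the 17202 genes tested there. Without Dot1l-cKO replicates 2 and 5 together, the 2 with the lowest GABAergic marker levels, 2 members were higher and 2 lower (2.75% and 0.643% of all genes). With sex as a covariate, 5 were higher and 2 lower (4.52% and 1.07% of all genes), and the calls of Nlgn1 and Lrrtm1 were lost. Leaving out 1 library at a time gave 3 to 11 members higher and 2 to 3 lower, while 3.58% to 6.26% of all genes were higher and 0.723% to 1.99% lower. The count of rises fell to 4 without control replicate 2 or 3 or without Dot1l-cKO replicate 1, 4 or 5 and to 3 without control replicate 4, and it went up to 11 without control replicate 5. All 9 called members kept their direction in every one of these fits.

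The promoters of 4 called members are shown because they stand for the 2 directions: Flrt3 and Cntnap3 fell, and Cntn5 and Nlgn1 had the largest rises among called members with a usable window. Gene positions are those of GENCODE vM21 on GRCm38, the assembly of the deposited counts. Each window is RefSeq sequence of GRCm38.p6, from 250 bases before to 50 bases after the RefSeq transcript start, and all 4 genes lie on the minus strand. That start was 7, 67 and 0 bases from the annotated gene start for Flrt3, Cntnap3 and Cntn5. For Nlgn1 it was 551 bases away, and the window lies inside the annotated gene without covering its annotated start. The sequences run 5′ to 3′ and capitals mark CG dinucleotides.
Flrt3, chr2:140671427-140671726: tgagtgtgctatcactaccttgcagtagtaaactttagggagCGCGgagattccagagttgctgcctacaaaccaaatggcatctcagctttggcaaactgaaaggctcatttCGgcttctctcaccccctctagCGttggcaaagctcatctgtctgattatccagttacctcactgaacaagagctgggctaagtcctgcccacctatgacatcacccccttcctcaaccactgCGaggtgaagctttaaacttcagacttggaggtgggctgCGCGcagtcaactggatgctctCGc
Cntnap3, chr13:64903839-64904138: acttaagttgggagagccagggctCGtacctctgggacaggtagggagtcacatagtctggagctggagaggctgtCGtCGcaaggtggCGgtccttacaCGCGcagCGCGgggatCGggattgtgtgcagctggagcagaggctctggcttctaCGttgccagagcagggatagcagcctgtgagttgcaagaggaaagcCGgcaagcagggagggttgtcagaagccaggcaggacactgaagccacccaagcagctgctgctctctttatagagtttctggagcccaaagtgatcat
Cntn5, chr9:10904726-10905025: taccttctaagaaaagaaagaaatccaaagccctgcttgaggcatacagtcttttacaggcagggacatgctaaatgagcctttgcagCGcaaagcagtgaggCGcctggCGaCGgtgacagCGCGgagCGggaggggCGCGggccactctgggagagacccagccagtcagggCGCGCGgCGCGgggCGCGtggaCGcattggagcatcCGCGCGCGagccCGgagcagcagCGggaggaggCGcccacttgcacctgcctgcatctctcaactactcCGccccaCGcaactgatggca
Nlgn1, chr3:26331860-26332159: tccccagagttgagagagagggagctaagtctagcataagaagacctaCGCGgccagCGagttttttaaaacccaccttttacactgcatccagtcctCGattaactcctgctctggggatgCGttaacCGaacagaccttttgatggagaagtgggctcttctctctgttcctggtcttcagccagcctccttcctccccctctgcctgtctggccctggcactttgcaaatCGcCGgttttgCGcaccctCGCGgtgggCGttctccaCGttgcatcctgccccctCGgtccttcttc
The windows hold 8 CG dinucleotides for Flrt3, 11 for Cntnap3, 26 for Cntn5 and 14 for Nlgn1, where the median over 32851 promoter windows was 7 and the 10th and 90th percentiles were 1 and 31. RefSeq windows whose start lies within 1000 bases of the annotated start were at hand for 24 members. Among these, the median CG count was 14 for the 6 that were higher, 9.5 for the 2 that were lower and 13.5 for the 16 not called. The letters CANNTG, which read the same on both strands, occur 3 times in the Flrt3 window, 2 times in that of Cntnap3, 3 times in that of Cntn5 and not in that of Nlgn1, and 72.3% of all windows hold them.

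Neuroligins are postsynaptic receptors for neurexins, and of the 3 measured here Nlgn1, best known from excitatory synapses, rose. Nlgn1 (ENSMUSG00000063887, chr3:25426215-26332460, minus strand) stood at 69.3, 47.9, 48.7, 62.2 and 74.0 CPM in control replicates 1 to 5 and at 99.97, 86.1, 76.1, 84.0 and 88.6 CPM in Dot1l-cKO replicates 1 to 5. The lowest Dot1l-cKO sample lay above the highest control, and the 2 lowest controls were replicates 2 and 3. Means were 60.4 ± 11.8 and 86.9 ± 8.66 CPM (SD, n = 5), which is 1.44-fold and a log2 fold change of 0.53 ± 0.13 with an edgeR adjusted p of 0.0326. The log2 fold change was 0.77 in the 57-numbered samples and 0.40 in the remaining 6. Nlgn1 was no longer called without control replicate 2, 3 or 4 or without Dot1l-cKO replicate 1, 2, 4 or 5 (edgeR adjusted p of 0.0546 to 0.0831), and the adjusted p was 0.0105 with the replicate block and 0.0597 with sex as a covariate. Nlgn2, the neuroligin of inhibitory synapses, had means of 90.7 ± 14.6 and 84.0 ± 22.3 CPM and was not called (a log2 fold change of -0.11 ± 0.19, edgeR adjusted p = 0.802). Its lowest sample, Dot1l-cKO replicate 2, was at 46.0 CPM with the other 4 between 82.5 and 101 CPM. Nlgn3 was not called either (35.3 ± 6.00 and 34.5 ± 6.95 CPM, edgeR adjusted p = 0.938). Its counts are uncertain, since 40.9% of its 50-base words also occur in other transcripts, mostly in Gm21986, which overlaps it on the same strand.

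Neurexins are the axonal partners of these receptors, and the estimates of Nrxn2 and Nrxn3 were far apart. Nrxn2 was at 75.8 ± 11.9 CPM among controls and 79.05 ± 10.6 CPM among Dot1l-cKO embryos (SD, n = 5), with a log2 fold change of 0.06 ± 0.12 and an edgeR adjusted p of 0.829. Nrxn3 (ENSMUSG00000066392, chr12:88722876-90334935, plus strand) stood at 44.9, 31.2, 13.1, 52.2 and 62.7 CPM in control replicates 1 to 5 and at 21.0, 6.35, 13.2, 17.8 and 3.53 CPM in Dot1l-cKO replicates 1 to 5. Control replicate 3 lay among the Dot1l-cKO samples, while the other 4 controls were above all 5 of them. The mean levels were 40.8 ± 19.3 and 12.4 ± 7.39 CPM, with a log2 fold change of -1.72 ± 0.50, which edgeR did not call (adjusted p = 0.0634). The edgeR adjusted p was 0.0235 without control replicate 3 and 0.0801 with the replicate block, and DESeq2 gave 0.0217. In the 57-numbered samples the log2 fold change of Nrxn3 was -1.16, and in the remaining 6 it was -1.93.

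The LRRTM proteins are leucine-rich postsynaptic receptors for neurexins, and Lrrtm1 rose. Lrrtm1 (ENSMUSG00000060780, chr6:77242689-77257791, plus strand) stood at 25.97, 24.5, 26.4, 26.9 and 33.2 CPM in control replicates 1 to 5 and at 36.5, 30.3, 34.2, 38.7 and 40.8 CPM in Dot1l-cKO replicates 1 to 5. Dot1l-cKO replicate 2 lay below control replicate 5, and otherwise the groups were apart. The difference was 1.32-fold, a log2 fold change of 0.40 ± 0.10, with an edgeR adjusted p of 0.0401, and the log2 fold change was 0.36 in the 57-numbered samples and 0.43 in the remaining 6. Of the 9 calls this one depended most on single libraries: it was kept without control replicate 5 and without Dot1l-cKO replicate 2, and lost without any of the other 8 (edgeR adjusted p of 0.0647 to 0.102). It was also lost with sex as a covariate (edgeR adjusted p = 0.0614). Lrrtm1 lies inside Ctnna2 on the opposite strand, and the host gene, a catenin that links cadherins to actin, was at 264 ± 46.4 and 273 ± 25.4 CPM (edgeR adjusted p = 0.857).

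Lrrtm4, which binds heparan sulfate proteoglycans, was close to the threshold. Lrrtm4 (ENSMUSG00000052581, chr6:80018877-80810143, plus strand) stood at 17.9, 16.7, 14.6, 16.1 and 20.1 CPM in control replicates 1 to 5 and at 25.1, 23.2, 17.7, 21.4 and 24.1 CPM in Dot1l-cKO replicates 1 to 5. Each Dot1l-cKO sample was above the control of its own replicate number, as it was for 13.2% of all genes tested, although the groups overlapped. The edgeR adjusted p was 0.0672 (a log2 fold change of 0.39 ± 0.11), 0.0160 with the replicate block, 0.0367 without control replicate 5 and 0.0301 without Dot1l-cKO replicate 3. Lrrtm2 had means of 15.7 ± 4.15 and 17.8 ± 1.65 CPM (edgeR adjusted p = 0.592). Lrrtm3 was the member of the family with a negative estimate (-0.44 ± 0.28), at 13.3 ± 5.10 CPM among controls and 9.83 ± 2.90 CPM among Dot1l-cKO embryos (edgeR adjusted p = 0.432). It was lower in Dot1l-cKO in all 5 pairs of replicate numbers, as were 11.6% of all genes tested.

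The LAR-type receptor phosphatases are axonal hubs that bind SLITRK proteins, some LRFN proteins and proteoglycans, and edgeR called 0 of the 3, with 0 at an unadjusted p under 0.05 and 0 called by DESeq2. Ptprs, one of the most abundant members, stood at 1315, 1256, 1345, 1493 and 1536 CPM in control replicates 1 to 5 and at 1219, 809, 1228, 1358 and 1534 CPM in Dot1l-cKO replicates 1 to 5. Each Dot1l-cKO sample was below the control of its number, with the widest gap at replicate 2, and the groups overlapped (a log2 fold change of -0.18 ± 0.14, edgeR adjusted p = 0.546). The same held for 11.6% of all genes tested, which were lower in all 5 pairs of replicate numbers. Ptprf stood at 259, 383, 404, 243 and 293 CPM in controls and at 219.8, 246, 359, 233 and 311 CPM in Dot1l-cKO, in the same order. Its 2 highest controls were replicates 2 and 3, the samples of header number 57, and the ranges overlapped (a log2 fold change of -0.21 ± 0.18, edgeR adjusted p = 0.561). Ptprd had means of 165 ± 17.0 and 173 ± 11.9 CPM (a log2 fold change of 0.07 ± 0.08, edgeR adjusted p = 0.704).

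The SLITRK proteins are postsynaptic binding partners of these phosphatases. Slitrk2 (ENSMUSG00000036790, chrX:66649318-66661393, plus strand) stood at 48.2, 36.5, 40.3, 38.9 and 44.5 CPM in control replicates 1 to 5 and at 57.5, 54.0, 48.0, 51.8 and 55.8 CPM in Dot1l-cKO replicates 1 to 5. The only overlap was Dot1l-cKO replicate 3, which lay just under control replicate 1. Slitrk2 rose 1.28-fold, a log2 fold change of 0.36 ± 0.09, with an edgeR adjusted p of 0.0288, and the log2 fold change was 0.43 in the 57-numbered samples and 0.32 in the remaining 6. The call was lost without control replicate 2, 3 or 4 or without Dot1l-cKO replicate 1, 2, 4 or 5 (edgeR adjusted p of 0.0502 to 0.0809).

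Slitrk3 promotes inhibitory synapses through Ptprd. Slitrk3 stood at 15.1, 7.38, 9.63, 17.0 and 17.2 CPM in control replicates 1 to 5 and at 22.9, 15.3, 16.6, 23.2 and 21.4 CPM in Dot1l-cKO replicates 1 to 5. Within each replicate number the Dot1l-cKO sample was the higher one, as it was for 13.2% of all genes tested. Replicates 2 and 3 were the lowest in both groups, whose ranges overlapped. The edgeR adjusted p was 0.177 (a log2 fold change of 0.58 ± 0.23) and 0.0168 with the replicate block. Slitrk1 had no overlap between 35.3 to 43.3 CPM among controls and 44.0 to 48.1 CPM among Dot1l-cKO embryos, with a log2 fold change of 0.23 ± 0.08 that was not called (edgeR adjusted p = 0.0961). Slitrk4 (7.33 ± 1.09 and 9.09 ± 2.09 CPM), Slitrk5 (33.1 ± 2.81 and 34.9 ± 4.77 CPM) and Slitrk6 (0.672 ± 0.245 and 0.655 ± 0.120 CPM) were not called, with edgeR adjusted p-values of 0.346, 0.734 and 0.965.

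The LRFN proteins are leucine-rich and fibronectin-type receptors, and Lrfn5, a binding partner of the LAR-type phosphatases, rose. Lrfn5 (ENSMUSG00000035653, chr12:61523150-61858342, plus strand) stood at 60.7, 52.3, 56.3, 56.0 and 78.04 CPM in control replicates 1 to 5 and at 82.8, 86.7, 90.003, 78.1 and 82.1 CPM in Dot1l-cKO replicates 1 to 5. The groups just missed each other, with control replicate 5 at 78.04 CPM and Dot1l-cKO replicate 4 at 78.10 CPM. The difference was 1.38-fold, a log2 fold change of 0.47 ± 0.10, with an edgeR adjusted p of 0.0195, and the log2 fold change was 0.72 in the 57-numbered samples and 0.31 in the remaining 6. It was not called without control replicate 1 (edgeR adjusted p = 0.0523), control replicate 4 (0.0571) or Dot1l-cKO replicate 3 (0.0505).

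Lrfn4 had the smallest spread of the 6 most abundant members relative to its mean. Lrfn4 stood at 73.4, 76.9, 78.04, 77.98 and 89.0 CPM in control replicates 1 to 5 and at 77.3, 82.8, 84.5, 87.1 and 76.8 CPM in Dot1l-cKO replicates 1 to 5, and the ranges lay over each other (a log2 fold change of 0.05 ± 0.07, edgeR adjusted p = 0.752). Lrfn1 was at 17.2 ± 1.83 and 16.7 ± 2.67 CPM, Lrfn2 at 4.94 ± 1.48 and 6.62 ± 1.57 CPM and Lrfn3 at 17.0 ± 1.97 and 15.4 ± 2.65 CPM in controls and in Dot1l-cKO. None of these 3 was called, with edgeR adjusted p-values of 0.877, 0.316 and 0.603.

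FLRT proteins are ligands of latrophilins and UNC5 receptors, and Flrt3 had the lowest adjusted p of all 38 members. Flrt3 (ENSMUSG00000051379, chr2:140650914-140671469, minus strand) stood at 103, 70.4, 94.7, 88.3 and 99.2 CPM in control replicates 1 to 5 and at 43.6, 50.3, 49.9, 40.3 and 51.6 CPM in Dot1l-cKO replicates 1 to 5. Every Dot1l-cKO sample was below every control, and the lowest control was replicate 2. Means were 91.0 ± 12.7 and 47.2 ± 4.92 CPM (SD, n = 5), a ratio of 0.518 and a log2 fold change of -0.95 ± 0.11 with an edgeR adjusted p of 0.000635. The log2 fold change was -0.70 in the 57-numbered samples and -1.10 in the remaining 6, and the call was kept in all 10 fits that left out 1 library. Flrt3 lies inside Macrod2 on the opposite strand, and Macrod2 was at 30.3 ± 2.84 and 30.0 ± 2.69 CPM (edgeR adjusted p = 0.966). Flrt2 had a positive estimate and was not called. Flrt2 stood at 164, 101, 128, 184 and 159.7 CPM in control replicates 1 to 5 and at 199.8, 166, 184, 188 and 219 CPM in Dot1l-cKO replicates 1 to 5. The Dot1l-cKO sample was higher within every replicate number, as it was for 13.2% of all genes tested. Control replicate 4 lay inside the Dot1l-cKO range (a log2 fold change of 0.38 ± 0.15, edgeR adjusted p = 0.170, and 0.0432 with the replicate block). Flrt1 had means of 30.5 ± 2.27 and 27.8 ± 6.81 CPM (edgeR adjusted p = 0.695).

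Contactins are axonal immunoglobulin-type proteins, and of the 6 measured Cntn3 and Cntn5 rose. Cntn5 (ENSMUSG00000039488, chr9:9660891-10904775, minus strand) stood at 10.8, 7.49, 6.36, 10.2 and 11.3 CPM in control replicates 1 to 5 and at 15.8, 18.1, 18.4, 16.7 and 14.4 CPM in Dot1l-cKO replicates 1 to 5. The groups did not overlap, and the 2 lowest controls and the 2 highest Dot1l-cKO samples were replicates 2 and 3. Cntn5 had the largest rise of the called members, 1.81-fold and a log2 fold change of 0.86 ± 0.16, with an edgeR adjusted p of 0.00808. Its log2 fold change was 1.42 in the 57-numbered samples and 0.54 in the remaining 6, where it was also called (edgeR adjusted p = 0.0349).

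Cntn3 was expressed at a lower level. Cntn3 (ENSMUSG00000030075, chr6:102162655-102573101, minus strand) stood at 5.43, 6.72, 5.19, 5.84 and 5.23 CPM in control replicates 1 to 5 and at 9.13, 9.31, 10.2, 6.98 and 8.44 CPM in Dot1l-cKO replicates 1 to 5. Control replicate 2 and Dot1l-cKO replicate 4 came closest to each other without overlap. The rise was 1.55-fold, a log2 fold change of 0.63 ± 0.12, with an edgeR adjusted p of 0.0109, a log2 fold change of 0.73 in the 57-numbered samples and one of 0.57 in the remaining 6. Cntn3 and Cntn5 were called in all 10 fits that left out 1 library.

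Cntn1 pairs with Cntnap1 beside the nodes of myelinated axons. Cntn1 stood at 39.2, 26.9, 28.5, 32.9 and 42.9 CPM in control replicates 1 to 5 and at 45.6, 42.3, 47.1, 48.6 and 38.5 CPM in Dot1l-cKO replicates 1 to 5. Control replicates 1 and 5 lay within the Dot1l-cKO range and the other 3 below it (a log2 fold change of 0.38 ± 0.13, edgeR adjusted p = 0.111, and 0.0359 without control replicate 5). Cntn2, a marker of early cortical axons, had the highest level per kilobase of all members. Cntn2 stood at 823, 851, 926, 1132 and 1095 CPM in control replicates 1 to 5 and at 726, 606, 871, 985 and 947 CPM in Dot1l-cKO replicates 1 to 5. Every Dot1l-cKO sample was below the control of its number, as it was for 11.6% of all genes tested. The ranges overlapped broadly (a log2 fold change of -0.22 ± 0.14, edgeR adjusted p = 0.431, and 0.0804 with the replicate block). Cntn4 (2.19 ± 1.53 and 3.12 ± 1.68 CPM) and Cntn6 (2.52 ± 1.21 and 3.65 ± 1.33 CPM) varied about as much within a group as between groups, with edgeR adjusted p-values of 0.60 and 0.458.

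Contactin-associated proteins are neurexin-like partners of the contactins, and the family held the largest fall and a rise. Cntnap3 (ENSMUSG00000033063, chr13:64736182-64903955, minus strand) stood at 3.04, 2.07, 2.83, 4.30 and 4.79 CPM in control replicates 1 to 5 and at 0.528, 0.555, 1.40, 0.679 and 0.193 CPM in Dot1l-cKO replicates 1 to 5. The highest Dot1l-cKO sample, replicate 3, was below the lowest control, replicate 2. Mean levels were 3.41 ± 1.12 and 0.671 ± 0.446 CPM (SD, n = 5), a ratio of 0.197 and a log2 fold change of -2.34 ± 0.42 with an edgeR adjusted p of 0.00714. The log2 fold change was -1.31 in the 57-numbered samples and -3.12 in the remaining 6 (edgeR adjusted p = 0.0101). Between 12 and 297 reads lay behind each value, so single samples are less precise here than for the other called members.

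Cntnap2, known for gathering potassium channels on axons together with Cntn2, rose. Cntnap2 (ENSMUSG00000039419, chr6:45059357-47304213, plus strand) stood at 90.4, 105, 88.6, 84.5 and 80.7 CPM in control replicates 1 to 5 and at 134, 142, 144, 119 and 103 CPM in Dot1l-cKO replicates 1 to 5. Dot1l-cKO replicate 5 lay under control replicate 2 and the others were apart. The rise was 1.43-fold, a log2 fold change of 0.52 ± 0.11, with an edgeR adjusted p of 0.0127, a log2 fold change of 0.59 in the 57-numbered samples and of 0.47 in the remaining 6 (edgeR adjusted p = 0.0437). Cntnap2 and Cntnap3 were called in all 10 fits that left out 1 library.

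Cntnap4 acts in interneurons and Cntnap1 at the axon beside nodes, and both were close to the threshold. Cntnap4 stood at 33.2, 23.1, 25.4, 30.7 and 43.5 CPM in control replicates 1 to 5 and at 43.6, 44.7, 42.6, 45.2 and 47.0 CPM in Dot1l-cKO replicates 1 to 5. The Dot1l-cKO samples were within a narrow range that only control replicate 5 reached (a log2 fold change of 0.52 ± 0.15, edgeR adjusted p = 0.0574). The adjusted p was 0.0290 with the replicate block and 0.00499 without control replicate 5. Cntnap1 stood at 0.382, 0.772, 0.584, 0.545 and 0.775 CPM in control replicates 1 to 5 and at 1.43, 0.867, 1.05, 0.875 and 1.43 CPM in Dot1l-cKO replicates 1 to 5. There was no overlap, but the values rest on 19 to 89 reads (a log2 fold change of 0.88 ± 0.24, edgeR adjusted p = 0.0506, and 0.0447 without control replicate 5). Cntnap1 overlaps Plekhh3 on the opposite strand, which was itself higher in Dot1l-cKO (log2 fold change 0.45 ± 0.10, edgeR adjusted p = 0.0244). Cntnap5a (4.89 ± 2.43 and 4.33 ± 1.54 CPM) and Cntnap5b (4.08 ± 0.658 and 4.06 ± 0.435 CPM) were not called, with edgeR adjusted p-values of 0.838 and 0.989.

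**Figure D2:**
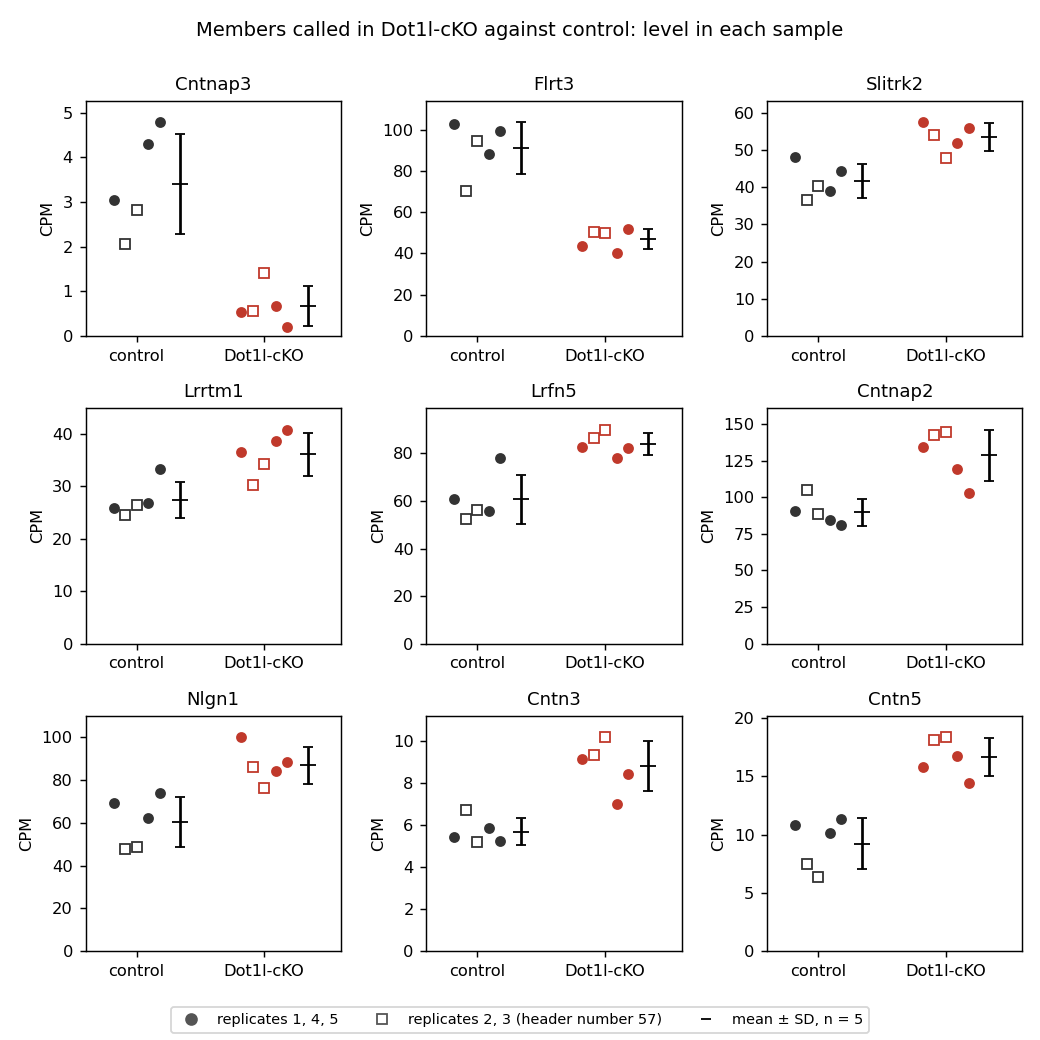
CPM (y axis, from 0) of the 9 members called in edgeR, in each of 5 control and 5 Dot1l-cKO samples. Open squares are replicates 2 and 3 of header number 57, filled circles the other replicates, and the bar at the right of each group is the mean ± SD (n = 5). Cntnap3 and Flrt3 are lower in every Dot1l-cKO sample than in any control, and of the 7 rises Lrrtm1, Cntnap2 and Slitrk2 overlap.

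Levels between genes were compared per kilobase of annotated exon. In controls the order was led by Cntn2 at 104 ± 15.1 CPM per kb and Ptprs at 92.7 ± 8.01 CPM per kb (SD, n = 5), whose ranges overlap. Ptprf followed at 34.6 ± 7.99, Lrfn4 at 23.5 ± 1.74, Flrt2 at 19.1 ± 4.26 and Flrt3 at 18.7 ± 2.61 CPM per kb, and Flrt2 and Flrt3 did not differ beyond their spread. In Dot1l-cKO, Flrt2 was at 24.8 ± 2.53 and Flrt3 at 9.69 ± 1.01 CPM per kb. The 7 members that rose were between 0.844 (Cntn3) and 9.03 (Lrrtm1) CPM per kb in controls, so that none of them was among the 6 most abundant. Cntnap1 was at the bottom with 0.104 ± 0.0283 and Slitrk6 next with 0.159 ± 0.0577 CPM per kb.

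**Figure D3:**
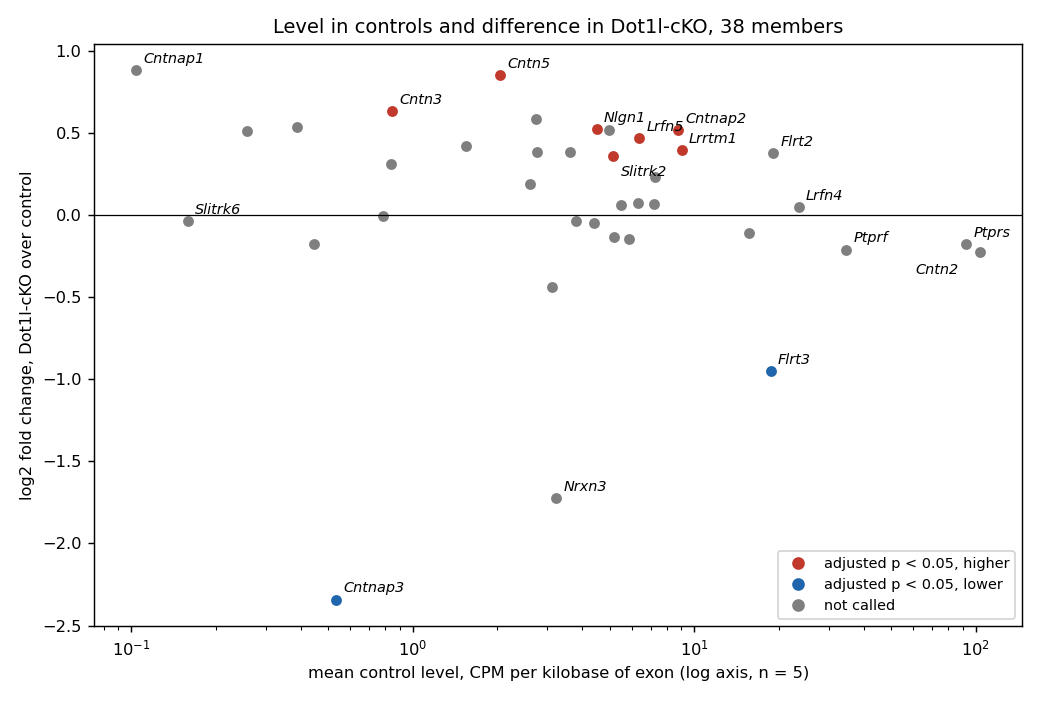
Mean control level of the 38 members in CPM per kilobase of exon (x axis, log scale, n = 5) against the log2 fold change in Dot1l-cKO over control (y axis). Red and blue points passed an adjusted p of 0.05 as higher and lower. The members that rose lie between 0.844 and 9.03 CPM per kb, and Cntn2 and Ptprs at the far right are grey.

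Members included both very long and short genes, with a median span of 88.1 kb against 20.5 kb over all genes tested. The 18 members over 100 kb had a median of 562 kb, and the 20 shorter ones a median of 14.2 kb. Of the 18 members that span over 100 kb, 5 were higher and 1 lower, where 9.78% of all genes of that span were higher and 3.26% lower. Of the 20 shorter members, 2 were higher and 1 lower, where 5.01% of shorter genes were higher and 1.15% lower. The 5 long members that rose were Cntnap2, which spans 2245 kb, Cntn5, Nlgn1, Cntn3 and Lrfn5, and the 2 short ones were Lrrtm1 and Slitrk2.

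Markers of GABAergic interneurons, which enter the dorsal telencephalon from ventral regions, had fold changes of the same sign as Cntnap3 and Nrxn3. The estimate of Cntnap4, which acts in interneurons, had the other sign (a log2 fold change of 0.52 ± 0.15, edgeR adjusted p = 0.0574). All 11 markers of the list had negative log2 fold changes, and edgeR called 3 of them lower: Lhx6 (log2 fold change -3.00 ± 0.43), Sst (-2.65 ± 0.63) and Npy (-2.39 ± 0.57). The summed level of the 11 was 262, 169, 94.0, 351 and 315 CPM in control replicates 1 to 5 and 105, 25.9, 64.1, 97.7 and 23.9 CPM in Dot1l-cKO replicates 1 to 5. Control replicate 3, the lowest control, is also the control in which Nrxn3 lay among the Dot1l-cKO samples. Dot1l-cKO replicate 5 had the lowest sum together with the lowest Nrxn3 and Cntnap3. Cntnap3 did not follow the sum in every sample. Among controls Cntnap3 was lowest in replicate 2 (2.07 CPM) and not in replicate 3 (2.83 CPM). Among Dot1l-cKO samples it was highest in replicate 3 (1.40 CPM), while the sum was highest in replicate 1. No marker of the list was at 0 in any sample. The part of these cells in the levels of Nrxn3 and Cntnap3 was not tested.

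Genes of other marker lists were called as well. Cajal-Retzius markers were higher in 4 of 6, with sums of 407 to 626 CPM in controls and 616 to 1188 CPM in Dot1l-cKO, and microglia markers were higher in 5 of 6, with sums of 30.1 to 54.9 and 58.6 to 95.8 CPM. Of 10 pan-neuronal markers edgeR called 0, with 2 at an unadjusted p under 0.05 and 0 called by DESeq2, and their sums overlapped at 3195 to 4820 and 3614 to 4418 CPM. In the list of dorsal telencephalon genes edgeR called 0 of 7 (4 at an unadjusted p under 0.05, 1 called by DESeq2), and sums were 1417 to 1511 and 1438 to 1779 CPM, so the markers that define the dissected tissue were present in every sample. Of 9 progenitor markers 3 were higher and 1 lower, and 6 of the 9 estimates were negative. Of 5 oligodendrocyte lineage markers 1 was lower (3 called by DESeq2), and all 5 estimates were negative with a median of -1.31. Of 4 thalamic markers tested 1 was higher, while 3 estimates were negative and the median was -0.71. Striatal and endothelial lists had 0 of 7 called each, in edgeR and in DESeq2, with 0 at an unadjusted p under 0.05. Negative estimates numbered 6 of 7 in the striatal list and 4 of 7 in the endothelial list. Choroid plexus, meninges and erythroid markers varied between samples without a call in edgeR or DESeq2 and with 0 of 16 at an unadjusted p under 0.05: their sums ran from 2.00 to 634, 14.7 to 393 and 438 to 1935 CPM in controls and from 3.68 to 153, 20.1 to 364 and 724 to 1721 CPM in Dot1l-cKO. The part of these cell types in the members' levels was not tested.

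**Figure D4:**
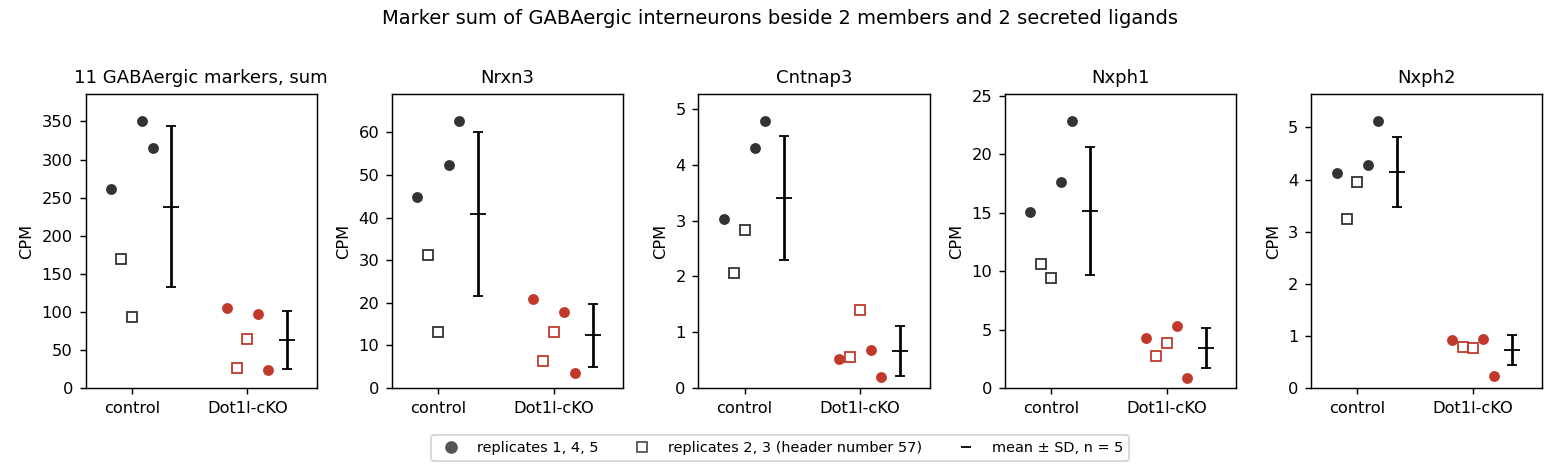
Summed CPM of 11 GABAergic interneuron markers and CPM of Nrxn3, Cntnap3, Nxph1 and Nxph2 (y axes, from 0) in each control and Dot1l-cKO sample. Open squares are replicates 2 and 3 of header number 57, and bars are mean ± SD (n = 5). In all 5 panels the lowest sample of all is Dot1l-cKO replicate 5.

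Genes whose proteins bind the members were examined as a list of 79 partners, of which 78 were tested. edgeR called 10 higher and 3 lower (12.8% and 3.85% of those tested, against the 5.67% and 1.44% of all genes given above). This list too was chosen with earlier results known, so the shares cannot show that partners change more than other genes. Of 12 secreted ligands and bridging proteins tested, 4 were higher and 2 lower. Among 33 other adhesion receptors there were 4 rises, of Il1rap (log2 fold change 0.57 ± 0.13), Lingo1 (0.52 ± 0.13), the teneurin Tenm1 (0.74 ± 0.18) and Adam23 (0.40 ± 0.10), with edgeR adjusted p-values of 0.0239, 0.0348, 0.0304 and 0.0416. In the L1 and NCAM group 1 of 6 rose, and of 27 intracellular scaffolds the liprin Ppfia4 rose (0.52 ± 0.14, edgeR adjusted p = 0.0466) and Dlg3 fell. With the replicate block 11 partners were higher and 5 lower: Adam23 was no longer called (edgeR adjusted p = 0.0649), the calsyntenin Clstn2 (0.0347) and the netrin-G protein Ntng2 (0.0165) were called higher, and the scaffold Dlgap2 (0.0105) and the teneurin Tenm2 (0.0399) were called lower. With sex as a covariate the calls of Lingo1, Tenm1, Adam23 and Ppfia4 were lost (edgeR adjusted p of 0.0543 to 0.0772). Of the 13 called partners, Nxph1, Nxph2, Cbln4, C1ql3 and Ncam2 were called in all 10 fits that left out 1 library, Il1rap and Lgi4 in 6, Lgi3 in 5, Tenm1, Adam23 and Dlg3 in 3, and Lingo1 and Ppfia4 in 2. The rises numbered 3 to 12 when 1 library was left out, and they fell to 3 without control replicate 2, to 4 without control replicate 1 or 4 or Dot1l-cKO replicate 1 or 4 and to 5 without Dot1l-cKO replicate 3.

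The neurexophilins Nxph1 and Nxph2, which are secreted ligands of neurexins, fell. Nxph1 stood at 15.0, 10.6, 9.37, 17.6 and 22.9 CPM in control replicates 1 to 5 and at 4.32, 2.77, 3.89, 5.29 and 0.838 CPM in Dot1l-cKO replicates 1 to 5. Nxph2 stood at 4.12, 3.25, 3.95, 4.28 and 5.13 CPM in controls and at 0.925, 0.798, 0.770, 0.935 and 0.242 CPM in Dot1l-cKO, in the same order. Both were lower in every Dot1l-cKO sample than in any control, with log2 fold changes of -2.14 ± 0.41 and -2.50 ± 0.30 and edgeR adjusted p-values of 0.00976 and 0.000751. In the 57-numbered samples the log2 fold changes were -1.57 and -2.18, and in the remaining 6 -2.42 and -2.70. Both were lowest in Dot1l-cKO replicate 5, as was the summed level of the GABAergic markers. Among controls, Nxph1 and the marker sum were lowest in replicate 3 and Nxph2 in replicate 2. The part of these cells in the levels of Nxph1 and Nxph2 was not tested. The other 2 neurexophilins measured, Nxph3 (0.42 ± 0.21) and Nxph4 (0.21 ± 0.21), were not called (edgeR adjusted p = 0.286 and 0.627).

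Cbln4, a cerebellin that bridges neurexins to receptors across the synapse, had the largest rise of the partners. Cbln4 stood at 0.945, 1.32, 0.853, 1.18 and 1.79 CPM in control replicates 1 to 5 and at 3.85, 2.46, 5.02, 3.02 and 3.77 CPM in Dot1l-cKO replicates 1 to 5, with no overlap, a log2 fold change of 1.57 ± 0.24 and an edgeR adjusted p of 0.00314. C1ql3, a secreted C1q-like organiser of synapses, stood at 6.23, 4.02, 4.46, 5.57 and 9.15 CPM in control replicates 1 to 5 and 14.8, 13.2, 16.1, 15.4 and 10.3 CPM in their Dot1l-cKO counterparts. The closest pair was control replicate 5 and Dot1l-cKO replicate 5, and the difference was 1.25 ± 0.22 on the log2 scale (edgeR adjusted p = 0.00588). The LGI proteins, secreted ligands of ADAM-type receptors, gave 2 further rises at low levels, Lgi3 (0.396 ± 0.0954 and 0.870 ± 0.285 CPM, edgeR adjusted p = 0.0258) and Lgi4 (0.337 ± 0.0829 and 0.634 ± 0.0606 CPM, edgeR adjusted p = 0.0207).

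Ncam2, a homophilic adhesion molecule known from olfactory axons, had the lowest adjusted p of the partners. Ncam2 stood at 21.4, 21.4, 20.6, 17.8 and 19.7 CPM in control replicates 1 to 5 and at 37.2, 42.8, 41.1, 35.03 and 39.8 CPM in Dot1l-cKO replicates 1 to 5. The 2 groups were far apart, with log2 fold changes of 1.01 in the 57-numbered samples and 0.93 in the remaining 6 (a log2 fold change of 0.96 ± 0.08 over all, edgeR adjusted p = 0.000141). Its close relative Ncam1 was at 563 ± 117 and 563 ± 83.8 CPM (a log2 fold change of 0.00 ± 0.15, edgeR adjusted p = 0.999). Dlg3, a scaffold of postsynaptic densities, stood at 96.8, 86.0, 85.8, 94.4 and 96.0 CPM in control replicates 1 to 5 and at 76.8, 62.6, 78.9, 76.4 and 77.0 CPM in Dot1l-cKO replicates 1 to 5. Every Dot1l-cKO sample was below every control, with replicate 2 far below the other 4, and the fall was small (a log2 fold change of -0.30 ± 0.08, edgeR adjusted p = 0.0351). The call of Dlg3 was kept without control replicate 2 or 3 or without Dot1l-cKO replicate 2 and lost without any of the other 7 libraries (edgeR adjusted p of up to 0.0932).

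**Figure D5:**
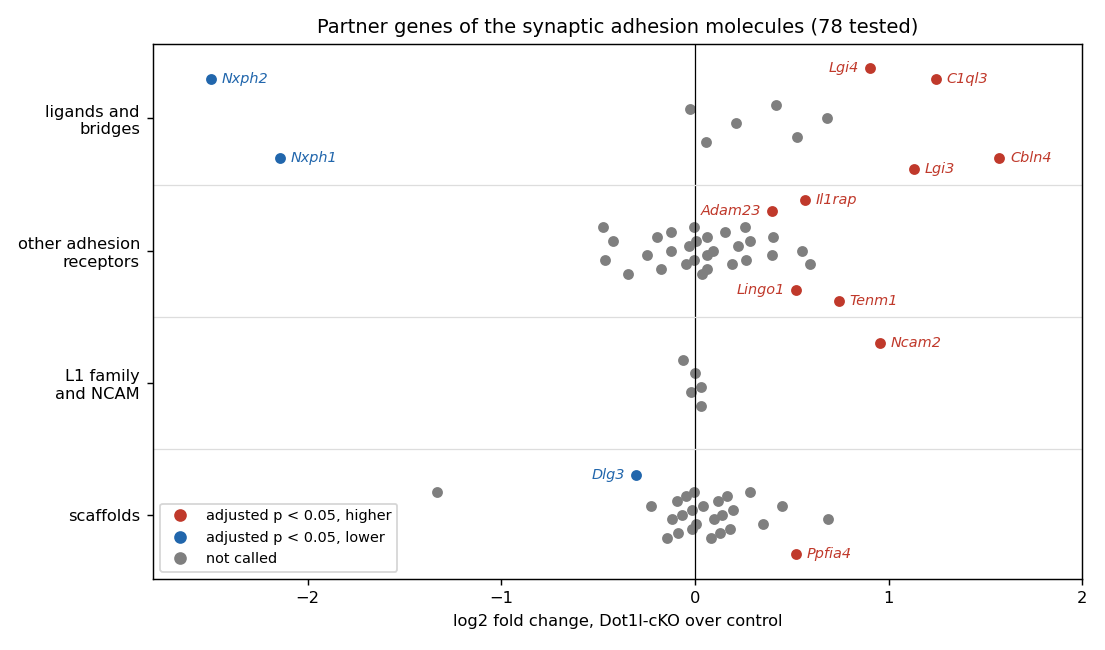
Log2 fold change in Dot1l-cKO over control (x axis) of the 78 partner genes tested, in 4 groups (y axis; points are spread vertically only to separate them). Red and blue points passed an adjusted p of 0.05 as higher and lower and carry their names. The secreted ligands and bridges hold both ends of the scale, Nxph2 at -2.50 and Cbln4 at 1.57.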

How the data were processed

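The deposited files hold, for each of 10 samples (5 control, 5 Dot1l-cKO embryos, labelled as biological replicates; the study's methods describe littermates), raw counts per gene and normalised values. Per the labels, ribosomal RNA was depleted, stranded paired-end libraries were made, and the authors trimmed reads (Trim Galore 0.2.8), mapped them to mm10 (TopHat2 2.0.9), counted them by strand with HTSeq 0.6.0 and used DESeq2 1.6.1. The normalised signal deposited by the authors is the count times 1 factor per sample and was used only for the numbers in its column names. Identifiers were named from GENCODE vM21 (42548 of 43629 matched; the others held 0.268% of counts).

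The raw counts were tested with edgeR 4.0.16 in R 4.3.3 (quasi-likelihood test, default filter on low counts, TMM, no covariate). Benjamini-Hochberg adjustment ran over the 17039 genes tested, and genes were called at an adjusted p under 0.05. The code was also run on simulated counts. Their planted changes were larger than every called rise of a member, and they held no header or replicate differences. That run therefore says nothing on how reliable calls of the members' size are. CPM values are counts per 1000000 of the TMM-scaled library size (49745464 to 66800622 over the 10 samples), not of the plain total. Replicates of a group differed by more than sampling noise in all 20 pairs (lowest chi-square per degree of freedom 30.8). Deviations from group means had r of 0.131 to 0.597 in the 5 pairs of equal replicate number. Over 20 other pairs the mean r was -0.072 and the highest 0.446. Control replicates 1 and 4 had their highest r with their own number. Control replicates 2, 3 and 5 had it with Dot1l-cKO replicates 3 (0.350), 5 (0.446) and 4 (0.294). Both groups carry header numbers 51, 57, 57, 90 and 154 in replicate order, which does not tell replicates 2 and 3 apart. Pairing by number is therefore an assumption, used in the replicate block and in counts over pairs but not in the main fit. The blocked value is given where it changes a call.

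Members, partner lists and marker lists were chosen with earlier results of these data known. Dot1l was named as a genotype check, and 1 further gene that the rule names is not reported here. Per-sample values were given for every called member, the 6 members with the highest control level per kilobase, members whose call changed in another fit, and the 3 largest rises and 3 largest falls of called partners whose mean log2 CPM was 1 or more. Alternatives were DESeq2 1.42.0, its size factors, 2 other count filters, the replicate block, header number 57 or sex as covariates, separate fits of the 4 samples numbered 57 and of the remaining 6, each sample left out in turn, and a threshold of 0.01. Leaving out Dot1l-cKO replicates 2 and 5 together was added after seeing the data. Protein sequences were not used here.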

Additional observations from a re-analysis of the deposited data

Results flagged for a closer look

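In 8 of 106 groups of 5 samples 1 sample stood apart from the other 4, by a gap above 0.71 of the group's whole range (Dixon's criterion); chance marks about 1 group in 20. In 6 of them it was Dot1l-cKO replicate 2, which was the low sample. The gap made up 0.745 of the range for Nlgn2 (46.0 CPM, the other 4 at 82.5 to 101 CPM), 0.845 for Nlgn3 (22.3 against 35.98 to 39.3 CPM), 0.795 for Lrfn1 (12.1 against 16.8 to 18.2 CPM) and 0.722 for Lrfn3 (10.9 against 15.5 to 17.7 CPM). It was 0.864 for the scaffold gene Dlg3 (62.6 against 76.4 to 78.9 CPM) and 0.717 for Dot1l itself (20.1 against 39.6 to 51.7 CPM). The other 2 were Nxph2 in Dot1l-cKO replicate 5 (0.242 against 0.770 to 0.935 CPM, 0.852 of the range) and Slitrk6 in control replicate 4 (0.265 against 0.645 to 0.883 CPM, 0.733 of the range).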

How the results depend on the processing

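Pairing by replicate number (the replicate block) raised the members called higher from 7 to 11 and the partners called lower from 3 to 5, and it turned the estimates of Cntnap5b (0.0026) and Slitrk6 (0.030) positive. Members called higher numbered 13 with header number 57 as a covariate, 5 with sex as a covariate, 3 within the other samples, 0 within header number 57 (16 at an unadjusted p under 0.05), 2 without Dot1l-cKO replicates 2 and 5 and 1 at an adjusted p under 0.01. Members called lower numbered 0 within header number 57. Partners called higher numbered 6 with sex as a covariate, 6 within the other samples, 0 within header number 57, 6 without Dot1l-cKO replicates 2 and 5 and 3 at an adjusted p under 0.01, and those called lower numbered 5 with DESeq2, 6 with header number 57 as a covariate and 0 within header number 57 (24 partners at an unadjusted p under 0.05 in either direction). Leaving out 1 sample gave 3 to 11 members higher and 2 to 3 lower, and 3 to 12 partners higher and 2 to 4 lower. The cause of these moves was not tested, except that fits within 4 or 6 samples and without libraries hold fewer samples.

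No called member changed direction. Signs turned for uncalled genes with small estimates: without Dot1l-cKO replicates 2 and 5 for Nlgn2 (0.013), Nlgn3 (0.075), Cntnap5a (0.095) and Lrfn1 (0.070). Within the other samples they turned for Lrrtm2 (-0.037), Slitrk6 (0.29), Lrfn3 (0.023), Lrfn4 (-0.00040), Flrt1 (0.055) and Ptprd (-0.051). Within header number 57 they turned for Cntnap5a (0.87), Cntnap5b (0.25) and Dot1l (-0.37), with header number 57 as a covariate for Cntnap5b (0.0057) and with sex as a covariate for Slitrk6 (0.11). Leaving out 1 sample gave log2 fold changes of -0.014 to 0.14 for Nrxn2, -0.19 to 0.043 for Nlgn2, -0.12 to 0.089 for Nlgn3, -0.38 to 0.12 for Cntnap5a, -0.081 to 0.067 for Cntnap5b, -0.24 to 0.085 for Slitrk6, -0.088 to 0.050 for Lrfn1 and -0.046 to 0.25 for Dot1l. Over all single-gene values in all alternatives, 871 kept direction and side of the threshold, 133 lost the call, 23 gained it and 33 turned sign. Many of these values come from genes not called in the main fit, which have no call to lose. All 133 losses fell on called genes, so the 871 do not measure how stable the calls were. The losses were uneven: leaving out 1 library lost the call in 8 of 10 fits for Lrrtm1 and in 0 for Flrt3. Counts of 12 to 89 reads limit Cntnap3 in Dot1l-cKO, Cntnap1 and Slitrk6.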
